A study of Mus musculus with 4 samples.

Results

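The genes described here are 10 transporters and receptors of the blood-brain barrier, taken by their symbols in the deposited gene table: Slc2a1, Mfsd2a, Slc7a5, Slc16a1, Slco1a4, Slco1c1, Slc22a8, Abcb1a, Abcg2 and Tfrc. All 10 were found, each once, among 32285 genes. Their unique molecular identifiers (UMIs, each standing for 1 captured RNA molecule) were summed over the endothelial-like cells of each library and over arterial-like, capillary-like and venous-like subtypes named from other genes. The study used single-cell RNA sequencing of mouse cortex late after stroke, and its title names blockade of VCAM1, an adhesion molecule of endothelium, or of VLA4, the leukocyte integrin that binds it. All mice were male C57BL/6N mice aged 10 months and all received an antibody for 10 weeks. One group had sham surgery and isotype control antibody, and 3 groups had dMCAO stroke surgery followed by an antibody to VCAM1, an antibody to VLA4 or the isotype control. The core and about 2 mm of cortex around it were taken (the sham library carries the same tissue label) from 4 to 5 mice per group and pooled into 1 library, so no p-value between groups could be computed and every interval covers counting error only. Levels are given as CPM, the UMIs of a gene per 1000000 UMIs of the same cells, with exact Poisson intervals at 95% confidence in parentheses, and groups of 4 values are in the order sham, isotype stroke, anti-VCAM1, anti-VLA4.

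The endothelium of brain vessels is sealed by tight junctions, so nutrients reach the tissue through carriers in its membranes, and efflux pumps return many drugs to the blood. Glucose, large neutral amino acids, lactate and ketone bodies, lipids with omega-3 fatty acids, thyroid hormone, organic anions and transferrin-bound iron each have a carrier or receptor among the 10 genes. Wnt/beta-catenin signals from neural cells are known to induce and maintain this barrier programme.

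For 9 of the 10 genes RefSeq promoter sequence on GRCm38.p6 was found, and 4 are shown here over the 250 bases before the RefSeq start. Slc16a1 is shown because it differed most between capillary-like and arterial-like cells, Tfrc and Slco1a4 because they had the lowest ratios under blockade, and Mfsd2a because it had the widest ratio between capillary-like and venous-like cells. Capitals mark ACGTG, the core of hypoxia-response elements, and CTTTG, a core shared by TCF/LEF and SOX sites, searched on both strands (CACGT and CAAAG in reverse). In Slc16a1 a match on each strand overlaps in CACGTG.
Slc16a1, chr3:104638414-104638663, plus strand: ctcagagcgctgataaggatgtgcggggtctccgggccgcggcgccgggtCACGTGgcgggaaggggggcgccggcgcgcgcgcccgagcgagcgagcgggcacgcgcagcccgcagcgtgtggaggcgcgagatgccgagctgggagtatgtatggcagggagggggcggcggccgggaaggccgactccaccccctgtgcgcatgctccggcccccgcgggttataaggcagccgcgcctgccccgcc
Mfsd2a, chr4:122961189-122961438, minus strand: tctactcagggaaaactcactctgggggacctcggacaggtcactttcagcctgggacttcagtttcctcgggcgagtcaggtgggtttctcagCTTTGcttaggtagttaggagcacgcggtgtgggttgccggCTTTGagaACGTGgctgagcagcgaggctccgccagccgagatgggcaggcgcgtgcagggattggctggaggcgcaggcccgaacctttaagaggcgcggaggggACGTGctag
Slco1a4, chr6:141856221-141856470, minus strand: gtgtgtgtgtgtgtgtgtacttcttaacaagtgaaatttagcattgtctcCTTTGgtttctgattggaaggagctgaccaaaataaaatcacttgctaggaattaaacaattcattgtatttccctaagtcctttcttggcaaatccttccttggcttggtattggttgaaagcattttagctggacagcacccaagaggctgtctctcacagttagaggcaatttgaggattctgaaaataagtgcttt
Tfrc, chr16:32608646-32608895, plus strand: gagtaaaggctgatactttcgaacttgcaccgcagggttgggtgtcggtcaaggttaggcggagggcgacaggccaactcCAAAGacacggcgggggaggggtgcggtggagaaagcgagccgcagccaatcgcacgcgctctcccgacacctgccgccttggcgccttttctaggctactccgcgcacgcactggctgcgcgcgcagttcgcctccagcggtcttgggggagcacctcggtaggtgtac
Over the 12 windows of the 9 genes (Abcg2 and Tfrc have several starts), ACGTG was found for 4 genes, Slc16a1, Slc2a1, Mfsd2a and Tfrc (in its other window), and CTTTG for 7. Among all 32851 windows of this length, 16.6% held ACGTG and 48.6% held CTTTG. These shares count windows, while the 4 and 7 count genes, so a gene with several windows had more chances of a match. A match describes letters in the window, not a bound site. RefSeq starts can differ from the gene positions given below. The Abcb1a window (chr5:8566841-8567090) lies far before the position given for that gene. The Slc22a8 window (chr19:8592932-8593181) lies inside the position given for that gene.

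The libraries held 1541, 2891, 4751 and 6361 barcodes and 10008987, 17130182, 25099141 and 34721356 UMIs. Endothelial-like cells numbered 550, 639, 2382 and 3054. All 10 endothelial markers were detected in 8 of the 9 endothelial sub-clusters kept, and 8 of the 10 in the other one. The sham and isotype stroke libraries shared 53 cell barcodes, against 1 to 7 for the other pairs. Endothelial-like cells with under 0.5% of their UMIs from Malat1, a nuclear RNA, made up 13.3%, 16.6%, 27.9% and 29.2%. Over all endothelial-like cells, Malat1 held 2.21%, 2.35%, 2.10% and 2.15% of the UMIs. The 8 pericyte markers summed to 129, 146, 252 and 263 CPM in these cells, the 8 microglia markers to 72.2, 111, 107 and 105, and the 15 dissociation stress genes to 3203, 2483, 2728 and 2845. Sub-cluster 1 was the largest capillary-like one in the sham and isotype stroke libraries (59.9% and 49.0% of capillary-like cells), and sub-cluster 0 in the anti-VCAM1 and anti-VLA4 libraries (31.0% and 32.6%). The largest arterial-like one was sub-cluster 5 in the first pair and sub-cluster 3 in the second. The blockade libraries thus differed from the other pair in cell states and in the share of cells low in Malat1, as well as in treatment. With 1 library a group these cannot be told apart.

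Each of the 10 genes had its highest level in endothelial-like cells in all 4 libraries, among named classes with at least 50 cells. A cluster left unnamed because it held pericyte and endothelial markers together, with 105 and 165 cells in the blockade libraries, was higher for some of them. Its Slc16a1 stood at 559.6 and 491 CPM and its Slc7a5 at 660.5 with anti-VCAM1, and with anti-VLA4 it held 458 CPM of Mfsd2a, 342 of Slc22a8 and 228 of Tfrc. Its Slco1a4, 1666 and 1761 CPM, was below the endothelial-like level. In microglia-like cells, Mfsd2a, Slco1a4, Slco1c1, Slc22a8 and Abcb1a stood between 0.195 and 6.05 CPM, against at least 299.6 in endothelial-like cells. Microglia-like levels were 62.4 to 74.2 CPM for Abcg2 and 49.9 to 74.0 for Slc2a1, and between 5.26 and 34.5 for Slc7a5, Slc16a1 and Tfrc. T-cell-like cells held 109 to 157 CPM of Abcb1a. In that class, the 10 cells with the most UMIs of the 10 genes carried 19.35%, 18.75%, 70.45% and 65.75% of the endothelial marker UMIs. Pericyte-like cells, with at least 50 cells in the blockade libraries only, had 114 to 954 CPM of the single genes. Those cells also held 8535 and 8542 CPM of endothelial markers, and 10 cells carried 73.6% and 43.7% of the UMIs of the 10 genes.

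When each cell was thinned to 1000 UMIs, the median endothelial-like cell had a UMI of 5 of the 10 genes in every library. Slco1a4 was detected in 86.9%, 86.3%, 79.5% and 80.1% of endothelial-like cells and in 0.208% to 0.412% of microglia-like cells. Slc2a1 was detected in 79.6%, 78.5%, 81.3% and 82.1%, and in 4.35% to 6.25% of microglia-like cells. Tfrc was detected in 21.9%, 23.2%, 17.2% and 16.6%, with 0.279% to 1.02% in microglia-like cells, and Mfsd2a in 23.0%, 24.0%, 26.4% and 27.9%. Unthinned, Tfrc was found in 48.9%, 52.6%, 43.0% and 43.3% of endothelial-like cells, whose median depth was 3888, 3788, 4048 and 4376 UMIs, and microglia-like cells were deeper, at 7342, 6095, 5308 and 5192. Cells below 1000 UMIs, 16, 35, 77 and 81 endothelial-like cells, were left out of the thinned shares.

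**Figure D1:**
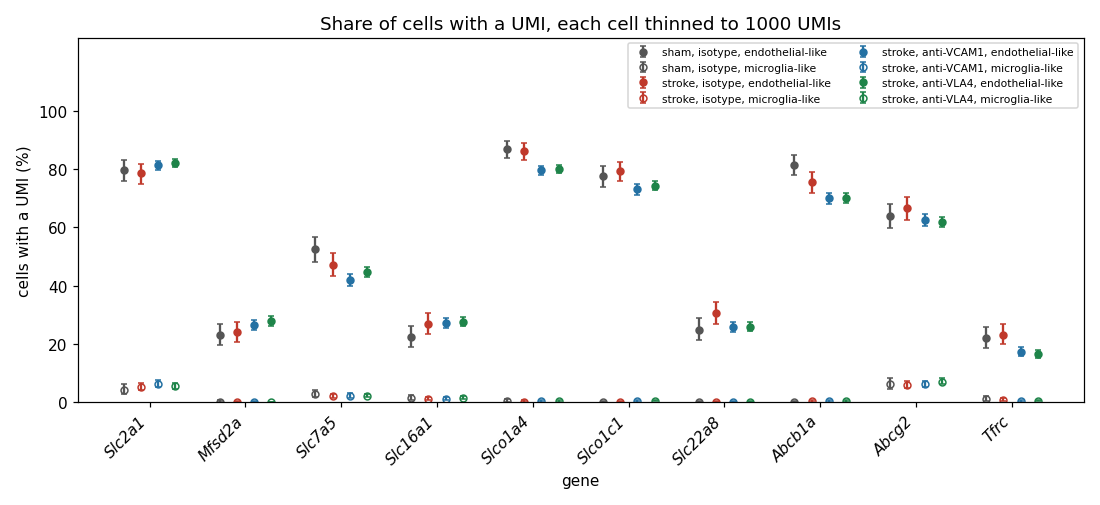
Percentage of endothelial-like cells (filled) and microglia-like cells (open) with a UMI of each gene in each library (colours), every cell thinned to 1000 UMIs, with exact Clopper-Pearson intervals at 95% confidence. All endothelial-like shares lie above the microglia-like shares of the same gene, with 21.9%, 23.2%, 17.2% and 16.6% for Tfrc, 86.9%, 86.3%, 79.5% and 80.1% for Slco1a4 and 79.6%, 78.5%, 81.3% and 82.1% for Slc2a1.

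The widest differences lay along the vessel tree, where a log2 ratio reached 2.21 (Slc16a1, capillary-like over arterial-like cells, sham). Between libraries, over all endothelial-like cells or a whole subtype, the ratio furthest from 0 was 0.83 (Slc22a8, isotype stroke over sham, arterial-like cells). Of the 10 genes, 8 had a higher level in capillary-like than in arterial-like cells in all 4 libraries, Slc2a1 had a lower one in all 4, and Slco1c1 had 2 ratios on each side of 0. Against venous-like cells, the capillary-like level was higher in all 4 libraries for Mfsd2a, Slco1c1, Slc7a5 and Slc2a1 and lower in all 4 for Slco1a4 and Abcg2. Intervals included 0 for Mfsd2a against arterial-like cells in isotype stroke, and against venous-like cells for Slc2a1 and Abcg2 in both isotype libraries and for Slco1a4 in sham. Capillary-like cells numbered 354, 404, 1468 and 1879, arterial-like cells 100, 122, 594 and 805 and venous-like cells 61, 46, 98 and 111. Subtypes were drawn from the same cells without using the 10 genes, and their differences are given as descriptions. The share of all genes that differed in the same way was not computed. The counts of genes higher or lower between subtypes therefore have no background beside them.

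**Figure D2:**
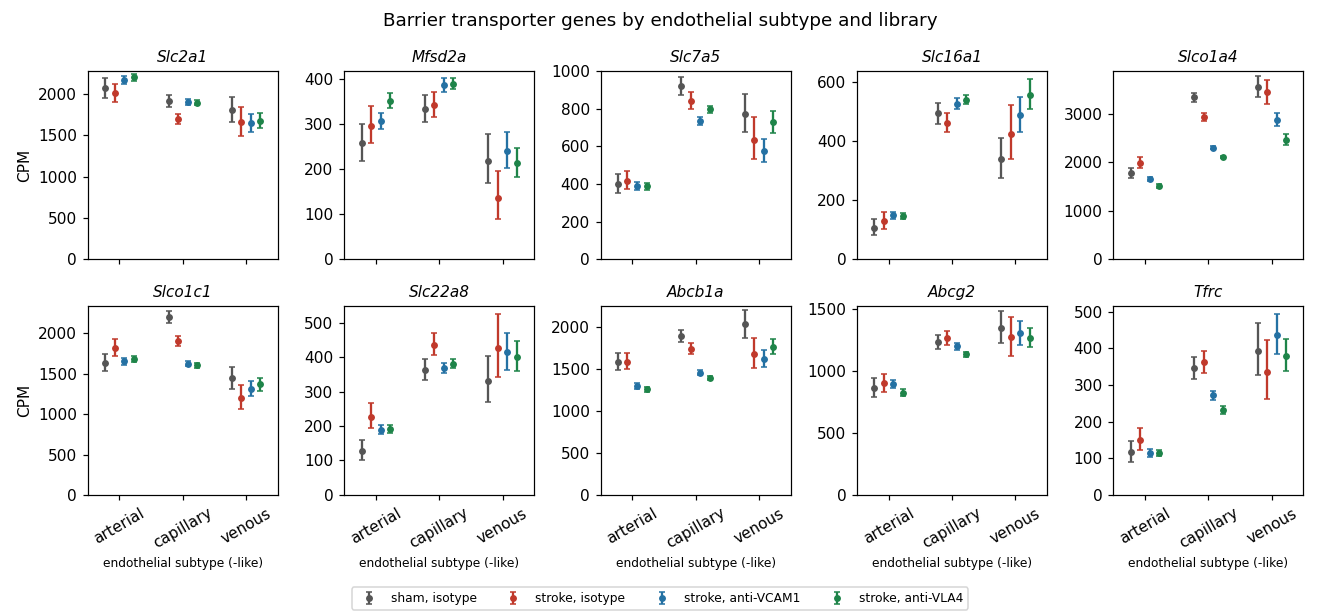
Level in CPM (each axis starts at 0) of the 10 genes in arterial-like, capillary-like and venous-like cells, with 1 coloured point per library and exact Poisson intervals at 95% confidence. Slc16a1 and Tfrc are lowest in arterial-like cells in every library, Slc2a1 is highest there, and Mfsd2a is lowest in venous-like cells.

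Glucose enters the brain through Slc2a1 (GLUT1; chr4:119108711-119137983, plus strand, a gene of 29.3 kb). Its level in endothelial-like cells was 1939 (1885 to 1994) in sham, 1790 (1740 to 1840) in isotype stroke, 1976 (1950 to 2002) under VCAM1 blockade and 1983 (1962 to 2005) under VLA4 blockade. The isotype stroke library was the lowest, and its interval did not overlap the others. Arterial-like cells held 2071, 2007, 2166 and 2203 CPM, capillary-like cells 1917, 1701, 1906 and 1897 and venous-like cells 1811, 1659, 1646 and 1674. The log2 ratio of capillary-like to arterial-like cells was -0.24 to -0.11, with the interval below 0 in each library. Venous-like cells were lowest in every library, but their difference from capillary-like cells exceeded counting error only in the blockade libraries.

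Mfsd2a (chr4:122946850-122961188) carries docosahexaenoic acid as lysophosphatidylcholine and restrains transcytosis in brain endothelium. Endothelial-like cells held CPM of 299.6 (279 to 322) in sham, 316 (296 to 338) in isotype stroke, 351 (340.0 to 362) under VCAM1 blockade and 365 (356 to 374) under VLA4 blockade. The isotype libraries overlapped each other and lay below both blockade libraries. Capillary-like cells held 334, 343, 387 and 390.1 CPM, arterial-like cells 258, 297, 307 and 353 and venous-like cells 219, 136, 239.9 and 214. The log2 ratio of capillary-like to venous-like cells was 0.61, 1.34, 0.69 and 0.87, with the interval above 0 in each. The low venous-like level of isotype stroke rests on 28 UMIs from 46 cells.

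Large neutral amino acids and L-DOPA cross by Slc7a5 (LAT1, chr8:121881150-121907694), the light chain of a dimer with Slc3a2. The level of Slc7a5 in endothelial-like cells was 769.5 (736 to 804) in sham, 719 (688 to 751) in isotype stroke, 608 (594 to 622) under VCAM1 blockade and 655 (642 to 667) under VLA4 blockade. Both blockade libraries were below both isotype libraries. Slc3a2 stood at 357, 359, 418 and 419 CPM, with both blockade libraries above. Capillary-like cells held 921, 843, 735 and 797 CPM of Slc7a5, arterial-like cells 400.1, 418, 388 and 388 and venous-like cells 773, 636, 575 and 727. The log2 ratio of capillary-like to arterial-like cells was 0.92 to 1.20 for Slc7a5 and 0.24 to 0.44 for Slc3a2.

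Slc16a1 (MCT1, chr3:104638668-104658462), whose promoter window is printed above, moves lactate, pyruvate and ketone bodies and needs the chaperone Bsg to reach the membrane. The endothelial-like level was 376 (353 to 401) in sham, 368 (346 to 391) in isotype stroke, 388 (376 to 399) under VCAM1 blockade and 406 (396 to 416) under VLA4 blockade. Isotype stroke and anti-VLA4 were apart, and every other pair of intervals overlapped. Within the vessel tree it differed most of the 10 genes. Arterial-like cells held 107, 129, 148 and 147 CPM, capillary-like cells 493, 461, 526 and 539 and venous-like cells 337, 422, 487 and 557. The log2 ratio of capillary-like to arterial-like cells was 2.21, 1.84, 1.82 and 1.88. Bsg differed far less between subtypes, with 12095, 14339, 18243 and 19030 CPM in capillary-like and 12232, 13705, 15855 and 16718 in arterial-like cells, log2 ratios of -0.02 to 0.20.

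Slco1a4 (chr6:141805440-141856199) takes up organic anions such as bile salts, steroid conjugates and drugs. Its level in endothelial-like cells was 2957 (2890 to 3025) in sham, 2670 (2609 to 2731) in isotype stroke, 2088 (2062 to 2115) under VCAM1 blockade and 1903 (1882 to 1925) under VLA4 blockade, an order without overlap of the intervals. Venous-like cells had the highest level in every library, 3553, 3440, 2877 and 2469 CPM, followed by capillary-like cells with 3341, 2929, 2303 and 2109 and arterial-like cells with 1781, 1994, 1658 and 1508. With each cell named by its marker score the median capillary to venous log2 ratio was 0.13, the opposite direction. The gene has close paralogs, and reads shared with them could have been lost or split in the authors' counting.

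Slco1c1 (chr6:141524368-141570177) takes up thyroxine. In endothelial-like cells it stood at 1947 (1893 to 2003) in sham, 1805 (1756 to 1856) in isotype stroke, 1614 (1591 to 1637) under VCAM1 blockade and 1596 (1577 to 1616) under VLA4 blockade. Both blockade libraries were below the isotype libraries and overlapped each other. The log2 ratio of capillary-like to arterial-like cells was 0.42, 0.06, -0.02 and -0.07, from 2198 against 1638 CPM in sham to 1602 against 1677 with anti-VLA4. Venous-like cells were lowest in every library, at 1444, 1203, 1313 and 1369 CPM. Ttr, the carrier of thyroxine made by choroid plexus, had 0 UMIs in endothelial-like cells, which allows at most 1.46 CPM in the shallowest library.

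Slc22a8 (OAT3, chr19:8591254-8611835) takes organic anions out of the brain side. Its endothelial-like level was 301 (279.8 to 323) in sham, 373 (351 to 397) in isotype stroke, 308 (298 to 318) under VCAM1 blockade and 315 (307 to 324) under VLA4 blockade. Isotype stroke was the highest and overlapped no other library. Capillary-like cells held 362, 436, 369 and 381 CPM, venous-like cells 331, 427, 414 and 401 and arterial-like cells 128, 227, 189 and 190.4.

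Abcb1a (P-glycoprotein, chr5:8660077-8748575) pumps many lipophilic drugs back to the blood. The endothelial-like level was 1825 (1773 to 1879) in sham, 1679 (1631 to 1728) in isotype stroke, 1402 (1380 to 1424) under VCAM1 blockade and 1362 (1344 to 1380) under VLA4 blockade. Both blockade libraries were below both isotype libraries. Capillary-like cells held 1900, 1744, 1458 and 1398 CPM, arterial-like cells 1592, 1593, 1302 and 1262 and venous-like cells 2037, 1688, 1627 and 1772. The near-copy Abcb1b had 2.70 to 3.15 CPM, and reads that match both could not be assigned.

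Abcg2 (BCRP, chr6:58584523-58695676) is the other main efflux pump. In endothelial-like cells it stood at 1158 (1116 to 1200) in sham, 1156 (1117 to 1197) in isotype stroke, 1105 (1086 to 1124) under VCAM1 blockade and 1038 (1022 to 1054) under VLA4 blockade. Anti-VLA4 was the lowest, and the other 3 libraries overlapped. Capillary-like cells held 1238, 1266, 1202 and 1135 CPM, venous-like cells 1352, 1276, 1306 and 1271 and arterial-like cells 864, 903, 897 and 827.

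Tfrc (chr16:32608920-32632794), the transferrin receptor, takes up iron-loaded transferrin from blood. Its level in endothelial-like cells was 289.7 (269 to 312) in sham, 301 (281 to 322) in isotype stroke, 224 (216 to 233) under VCAM1 blockade and 198 (191 to 205) under VLA4 blockade. The isotype libraries overlapped, and the blockade libraries lay below them without overlap. Arterial-like cells held 116, 150.5, 115 and 114 CPM, capillary-like cells 346, 362, 271 and 231 and venous-like cells 393, 335, 437 and 379. The log2 ratio of capillary-like to arterial-like cells was 1.57, 1.27, 1.24 and 1.02. Its ligand Trf had 4.23 to 6.12 CPM in endothelial-like and 483 to 504 in microglia-like cells.

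Over the 12 sums of 3 subtypes in 4 libraries, Abcg2 and Tfrc had the closest profiles (Pearson r = 0.984), Slc22a8 and Slc16a1 the next (0.946), and Slc2a1 ran against Tfrc (-0.911). Slc2a1, Mfsd2a and Slco1c1 had r of 0.504 to 0.745 with each other. With the rest of the 10, the highest r of these genes was -0.633, 0.027 and 0.071, in that order. The mean of the 10 is therefore not a profile shared by all of them. Outside the 10, the profiles most like that mean were those of Hmcn1 (0.942), Tiam1 (0.926), Map3k20 (0.924), Ttyh2 (0.923) and Scarb1 (0.919). The sums share libraries and depth, and Hmcn1 is one of the capillary markers used for naming.

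The stroke comparison set isotype stroke over sham. None of the 10 genes was called, a call being a log2 ratio of at least 0.5 in either direction with an interval that excludes 0. By that rule 2.42% of 8838 genes with at least 50 UMIs were called higher and 3.34% lower in endothelial-like cells. The ratios ran from -0.15 for Slco1a4 to 0.31 (0.18 to 0.45) for Slc22a8. Of the 10, 3 were above 0, against 46.4% of all genes tested. Their median was -0.07, against -0.02 over all genes tested. Over the 961 genes with at least 1000 UMIs the median was -0.03, with 5 called higher and 5 lower. Slc2a1, Slc7a5, Slco1c1 and Abcb1a had ratios of -0.12, -0.10, -0.11 and -0.12 with intervals below 0, all under the fold of a call. Tfrc, Mfsd2a, Slc16a1 and Abcg2 had intervals that include 0. Without the cells whose barcodes recur in another library, the median was -0.08 and again none was called.

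**Figure D3:**
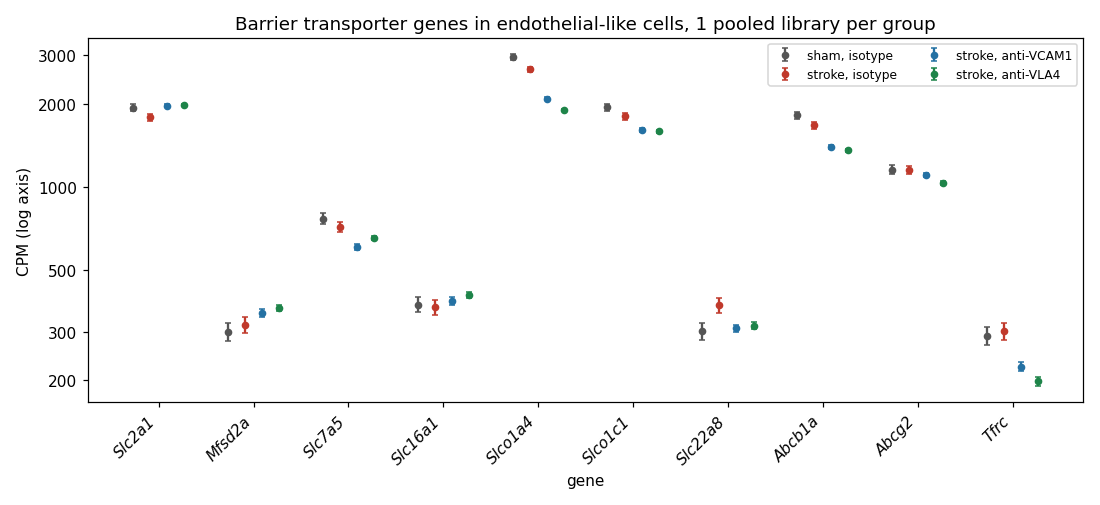
Level in CPM (log axis) of the 10 genes in all endothelial-like cells, with 1 coloured point per library and exact Poisson intervals at 95% confidence. Slco1a4 is 2957 in sham and 1903 with anti-VLA4, Tfrc 301 in isotype stroke and 198 with anti-VLA4, and Slc2a1 lies between 1790 and 1983.

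Within subtypes the stroke comparison gave 2 calls. Slc22a8 was called higher in arterial-like cells, at 227 against 128 CPM (log2 ratio 0.83 (0.43 to 1.24)), where 2.73% of genes were called higher and 4.2% lower. With each cell named by its own marker score the ratio was 0.42, and with thinned cells it was 1.20 with an interval that included 0; neither is a call. Mfsd2a was called lower in venous-like cells, at 136 against 219 CPM (-0.69 (-1.38 to -0.04)), where 3.9% were called higher and 4.22% lower. That ratio was 0.68 when marked doublets were kept and all cells were clustered again. In capillary-like cells none of the 10 was called, where 2.99% of genes were higher and 3.88% lower. Slco1a4 and Slco1c1 had ratios of -0.19 and -0.21 in capillary-like cells and 0.16 and 0.15 in arterial-like cells.

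The anti-VCAM1 comparison set that library over isotype stroke. None of the 10 genes was called in endothelial-like cells, where 2.29% of 10440 genes were called higher and 8.17% lower. Tfrc had the lowest ratio, -0.42 (-0.54 to -0.31), followed by Slco1a4 at -0.35, Slc22a8 at -0.28, Abcb1a at -0.26 and Slc7a5 at -0.24. Slco1c1 stood at -0.16 and Abcg2 at -0.07. Above 0 were Slc2a1 at 0.14, Mfsd2a at 0.15 and Slc16a1 at 0.07. The median of the 10 was -0.20, against -0.06 over all genes tested, of which 43.1% had a ratio above 0. Over the 2839 genes with at least 1000 UMIs the median was -0.006, with 49.6% above 0, 122 called lower and 46 higher. The partners Bsg and Slc3a2 had ratios of 0.28 and 0.22.

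The anti-VLA4 comparison used the same isotype stroke library as its control, so the blockade comparisons are not independent of each other. Tfrc was called lower in endothelial-like cells, from 301 to 198 CPM (-0.60 (-0.71 to -0.49)). That is 1 of 10 genes, where 9.85% of 10796 genes were called lower and 2.43% higher, so the share called is near that of all genes with at least 50 UMIs. Slco1a4 came next at -0.49 (-0.53 to -0.45), then Abcb1a at -0.30, Slc22a8 at -0.24, Slco1c1 at -0.18, Abcg2 at -0.16 and Slc7a5 at -0.13. Slc2a1, Mfsd2a and Slc16a1 stood at 0.15, 0.21 and 0.14 with intervals above 0. The median of the 10 was -0.17, against -0.08 over all genes tested, of which 42.46% had a ratio above 0. Over the 3582 genes with at least 1000 UMIs the median was 0.002, with 50.25% above 0, 240 called lower and 68 higher. The partners Bsg and Slc3a2 had 0.34 and 0.22. Without the cells under 0.5% Malat1, Tfrc had a ratio of -0.50, just under the fold of a call, and Slco1a4 had -0.40. Taken as the median within sub-clusters, the Tfrc ratio was -0.34, also under that fold. The Slc7a5 ratio taken that way was 0.10, the opposite direction, with 3 of 5 sub-clusters above 0.

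By subtype, Tfrc was called lower in capillary-like cells with anti-VLA4, at 231 against 362 CPM (-0.65 (-0.78 to -0.51)), where 11.4% of genes were called lower and 4.54% higher. Its ratios of -0.40 in arterial-like and 0.18 in venous-like cells were not calls. Mfsd2a was called higher in venous-like cells with both antibodies, with a ratio of 0.82 (0.23 to 1.46) under VCAM1 blockade and one of 0.65 (0.07 to 1.29) under VLA4 blockade. There 6.37% and 5.7% of genes were called higher and 7.78% and 8.06% lower. Both ratios rest on the same 28 control UMIs, and with doublets kept and cells clustered again they were -0.07 and 0.29. With anti-VCAM1 none of the 10 was called in capillary-like cells (4.26% of genes higher, 9.64% lower) or arterial-like cells (2.51% and 5.73%). With anti-VLA4 none was called in arterial-like cells (2.52% and 6.15%).

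**Figure D4:**
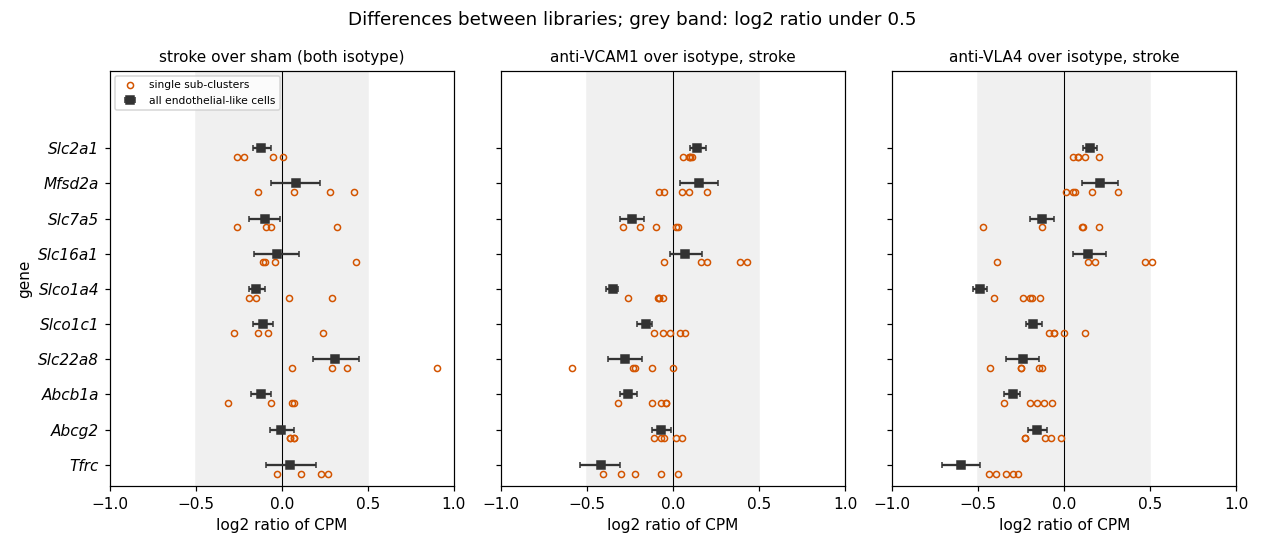
Log2 ratio of CPM for the 10 genes in the 3 comparisons: squares are all endothelial-like cells with conditional binomial intervals at 95% confidence, open circles are single sub-clusters with at least 50 cells in both libraries, and the grey band covers ratios under the fold of a call. With anti-VLA4 the Tfrc square is at -0.60, outside the band, and its circles run from -0.44 to -0.27.

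Within the 5 sub-clusters compared, which left out sub-cluster 0, the median blockade ratio of the 10 genes was nearer 0. Capillary-like sub-cluster 0, led by Meox1, Car4 and Ankrd37, held 1.09%, 4.54%, 19.1% and 20.1% of endothelial-like cells. The median Malat1 share of its cells was 0.171% and 0.151% in the blockade libraries. With anti-VLA4 it held 1321 CPM of Slco1a4, 133 of Tfrc, 1063 of Abcb1a and 469 of Mfsd2a. Sub-cluster 1 of that library held 3218, 362, 1809 and 354.

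The 5 sub-clusters with at least 50 cells in both libraries were capillary-like 1, 2 and 4 and arterial-like 3 and 5. Among those left out were sub-cluster 0 and venous-like sub-cluster 7, with 29 and 46 isotype stroke cells. Over the 5 compared, the Tfrc ratio ran from -0.44 to -0.27 with anti-VLA4, below 0 in all 5, and from -0.41 to 0.03 with anti-VCAM1. In venous-like cells the Tfrc ratio was 0.18 with anti-VLA4 and 0.38 with anti-VCAM1, neither a call. The Slco1a4 ratio ran from -0.41 to -0.14 and from -0.26 to -0.06, below 0 in all 5 for both. The Abcb1a ratio ran from -0.35 to -0.07 and from -0.32 to -0.04, also below 0 in all 5 for both. With anti-VCAM1 its interval included 0 in sub-clusters 1, 2, 3 and 4. Slc2a1 was above 0 in all 5 for both, from 0.05 to 0.20 and from 0.06 to 0.11, while in venous-like cells it stood at 0.01 and -0.01. The median of the 10 genes, taken within sub-clusters, was -0.08 with anti-VLA4 and -0.06 with anti-VCAM1. Cells with under 0.5% Malat1 had lower Slco1a4 and Tfrc than other endothelial-like cells in all 4 libraries (median log2 ratios -0.58 and -0.72). These ratios ran from -0.66 to -0.10 and from -0.83 to -0.17, and sham, where Tfrc had 59 UMIs in such cells, was nearest 0 for both. Mfsd2a and Slc16a1 were higher in all 4 libraries (medians 0.24 and 0.37, ranges 0.05 to 0.44 and 0.14 to 1.28). In the stroke comparison Slc22a8 was above 0 in all 4 sub-clusters compared, from 0.06 to 0.90. Sub-clusters of the same libraries are not replicates. The share of all genes with the same sign in every sub-cluster compared was not computed.

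**Figure D5:**
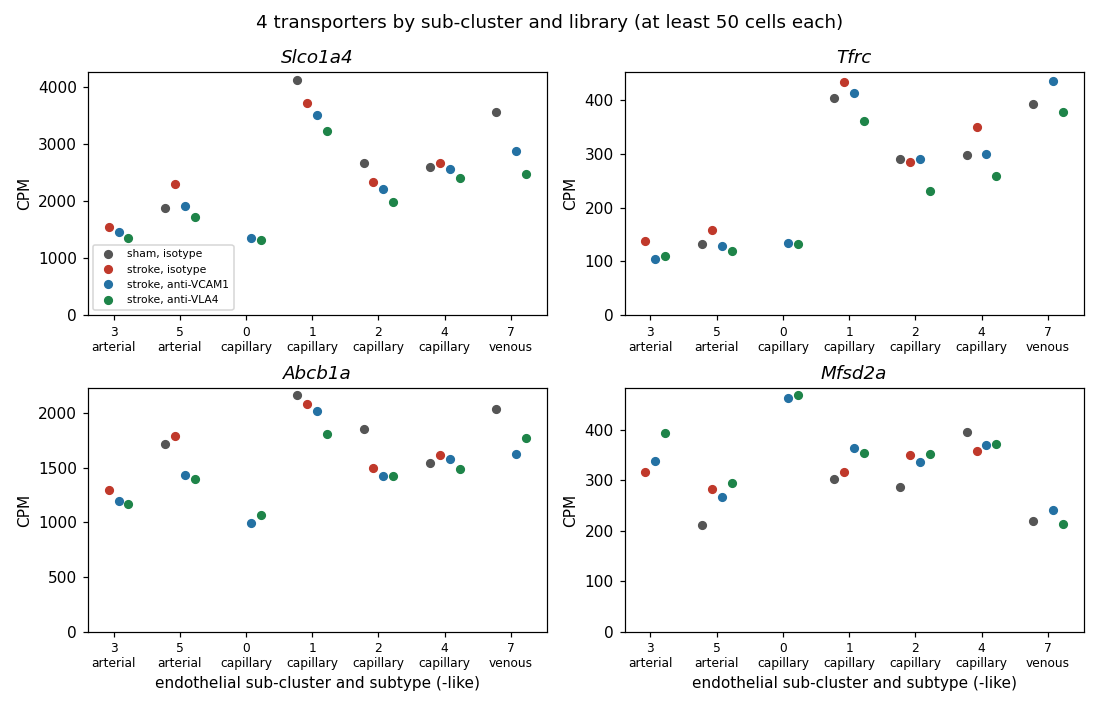
Level in CPM (axes start at 0) of Slco1a4, Tfrc, Abcb1a and Mfsd2a in named endothelial sub-clusters, with 1 coloured point per library that has at least 50 cells there. Sub-cluster 0, plotted for the blockade libraries only, has the lowest Abcb1a of those plotted, 996 and 1063, and the highest Mfsd2a, 462 and 469.

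A list of 46 other carriers and receptors of the barrier covered the rest of the transport system. In the stroke comparison 38 of them had at least 20 UMIs. Of these, 14 (36.8%) had a ratio above 0, against 46.4% of all genes. Their median was -0.07, against -0.02 over all genes. Of the 38, 1 was called higher and 2 lower, against 3.34% of all genes lower and 2.42% higher. The shares over all genes use a floor of 50 UMIs and the list one of 20. Cd320, the receptor for transcobalamin-bound cobalamin, was called higher, from 65.9 to 95.1 CPM (0.53). Slc5a6, a vitamin carrier, and Slco2a1, a prostaglandin carrier, were called lower, on 31 and 17 UMIs and on 17 and 3. Among genes with at least 200 UMIs, Stra6, the receptor for retinol-binding protein, had 0.43, the exporter Abcc5 0.19 and the copper pump Atp7a 0.09, and the lowest ratios were those of the zinc exporter Slc30a1 (-0.35), the thiamine carrier Slc19a3 (-0.24), the insulin receptor Insr (-0.19) and the amino acid carrier Slc38a3 (-0.18). None of these 7 was called.

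With anti-VCAM1, 2 of the 41 measured genes of that list were called lower and none higher, against 8.17% of all genes lower and 2.29% higher. Of their ratios 9 (21.95%) were above 0, against 43.1% of all genes, and the median was -0.17, against -0.06 over all genes. The flippase Atp10a went from 819.9 to 513 CPM (-0.68) and the exporter Abcc4 from 610.3 to 396 (-0.62). Insr (-0.50, just under the fold) was not called. The monocarboxylate carrier family member Slc16a4 stood at 111.3 and 111.1 CPM, and among genes with at least 200 UMIs Cd320, the riboflavin carrier Slc52a2 and the antibody receptor Fcgrt had the highest ratios, 0.34, 0.19 and 0.17.

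With anti-VLA4, 5 of 41 were called lower and none higher, against 9.85% of all genes lower and 2.43% higher. Of the ratios 11 (26.8%) were above 0, against 42.46% of all genes, and the median was -0.19, against -0.08 over all genes. The genes called were the cholesterol exporter Abca1 (-0.67), Atp10a (-0.65), the glutamine carrier Slc38a5 (-0.62), Abcc4 (-0.58) and Abcc5 (-0.55). Cd320, Stra6, Fcgrt and Slc52a2 stood at 0.32, 0.16, 0.13 and 0.12 without a call. When the median ratio of genes of like genomic span was subtracted, 1 gene of the list was called in each blockade comparison, and the median of the 10 barrier genes was -0.03 with anti-VCAM1 and -0.04 with anti-VLA4. Abcg2 then had ratios above 0, at 0.22 and 0.15. The share of all genes called after that subtraction was not computed.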

How the data were processed

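The 4 libraries were mapped to groups by their sample titles. The authors' deposited values are UMI counts for each gene in each barcode, and the file headers name Cell Ranger 7.0.1. The submitters' processing notes list Cell Ranger 6.0.0, Seurat 4.3.0.1, mm10 and GRCh38, without role or order, so the annotation used for counting is not given in the sources used here. Per the labels' protocols, live cells were sorted after staining of CD31 and CD45 and loaded for 3' sequencing; which fractions were collected is not given in the sources used here. Since tags lie at the 3' end, levels are not compared between genes.

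The genes and lists were chosen with earlier results of these data known. Cells had at least 500 UMIs, 200 genes and at most 10% mitochondrial UMIs, and cells marked by Scrublet were removed (11, 24, 63 and 124), leaving 1514, 2832, 4657 and 6209. Cells were clustered without the 10 genes, the transporter, partner and stress lists, and mitochondrial, ribosomal and haemoglobin genes, on 2000 variable genes and 30 components at Leiden resolution 1, and the endothelial-like ones again on 20 components. A cluster needed 3 detected markers for a name. After clusters had been seen it was settled that markers are judged against the cells of other classes, that 5 markers of a second class leave a cluster unnamed (such as 277 cells with pericyte and endothelial markers), and that endothelial sub-clusters led by microglial genes or over 10% haemoglobin (0, 9, 13 and 24 cells) stay out. Sub-clusters 6 and 8 have no subtype name.

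Log2 ratios have conditional binomial intervals and no pseudocount. Named genes were the 10, 4 partners, and the 4 highest and 4 lowest ratios per comparison among other transporters with at least 200 UMIs; Slc5a6, Slco2a1, Abcb1b and the anti-VLA4 value of Abcc5 were added after their values had been seen. One gene that this rule names is not reported here. Positions and spans are those of GENCODE M21 (GRCm38), matched by ID for 99.61% of genes. Alternatives changed cell filters, doublet removal, naming, resolution, scaling, thinning and the fold of a call. Ratio and call were tested on simulated counts. Software was edgeR 4.0.16 on R 4.3.3, and Python 3.11.15 with scanpy 1.11.5, leidenalg 0.10.2, scikit-learn 1.9.0, scipy 1.17.1, numpy 2.4.6, pandas 2.3.3 and matplotlib 3.10.9.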

Additional observations from a re-analysis of the deposited data

Results flagged for a closer look

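In the stroke comparison 2 thyroid hormone and organic anion carriers had ratios of opposite sign in different vessel segments. Slco1a4 had a log2 ratio of 0.16 (0.05 to 0.28) in arterial-like cells and -0.19 (-0.25 to -0.13) in capillary-like cells. Slco1c1 had 0.15 (0.03 to 0.27) in arterial-like cells, -0.21 (-0.28 to -0.14) in capillary-like cells and -0.26 (-0.49 to -0.04) in venous-like cells. The arterial-like and capillary-like signs were the same in all 15 alternatives run for each gene. Some of these could not change a subtype ratio, such as the lower fold of a call and the removal of unnamed sub-clusters. The capillary-like sign of Slco1a4 was not shared by every sub-cluster. Its ratio was -0.15 and -0.19 in sub-clusters 1 and 2 and 0.04 (-0.07 to 0.14) in sub-cluster 4. None of these ratios reached the fold of a call, each group was 1 library, and the difference between segments was not tested.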

How the results depend on the processing

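The median log2 ratio of the 10 genes stayed below 0 in both blockade comparisons under every alternative. The lower fold of a call and the floor of 200 UMIs could not change that median. With anti-VCAM1 it was -0.20, and -0.27 with cells thinned to 1000 UMIs, -0.13 with TMM factors from edgeR, -0.03 without the gene-span trend and -0.06 within sub-clusters. With anti-VLA4 it was -0.17, and -0.22, -0.09, -0.04 and -0.08 under the same settings. Of the 10 genes, 1 was called with anti-VLA4, against 2 with thinned cells, 0 without cells low in Malat1 and 3 at a fold of 0.3. That fold gave 1 call for stroke and 2 for anti-VCAM1, where the stated fold gave 0. The share of all genes called was not computed under the alternatives. Counts of calls under them, here and below, therefore have no background beside them. Calls by subtype numbered 5, but 9 at sub-cluster resolution 0.5 and 15 at the lower fold. The venous-like Mfsd2a ratio reversed when doublets were kept, to 0.68 for stroke and -0.07 for anti-VCAM1. With each cell named by marker score, 0 genes rather than 2 were lower in capillary-like than venous-like cells in all 4 libraries, and the median capillary to venous ratio of Slco1a4 reversed to 0.13. Calls among the other transporters in the stroke comparison were 3, and 1 with thinned cells, 1 with at least 200 UMIs and 5 at the lower fold. For anti-VCAM1 they were 2, and 5 thinned, 4 with stricter cell filters, 10 at the lower fold, 4 with the subtype makeup held fixed, 1 without the span trend and 4 without unnamed sub-clusters. For anti-VLA4 they were 5, and 2 without cells low in Malat1, 14 at the lower fold and 1 without the span trend. Within sub-clusters Slc7a5 turned to 0.10 with anti-VLA4. Abcg2 took the sign above 0 without the span trend, at 0.22 and 0.15, and with anti-VCAM1 it was 0.01 with TMM factors. The causes were not tested. No paired analysis was possible because each group was 1 library, and for the same reason no library could be left out and no count model was fitted. The comparisons without shared barcodes, without the span trend, without unnamed sub-clusters, with left-out sub-clusters kept and within sub-clusters were added after the data had been seen. Depth limits the venous-like values most, where the isotype stroke library had 46 cells.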

Other observations

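Among border-macrophage-like cells, the 10 genes summed to 112, 116, 214 and 947 CPM in sham, isotype stroke, anti-VCAM1 and anti-VLA4. In the anti-VLA4 library 10 of 95 such cells carried 92.7% of these UMIs, and the same 10 cells carried 94.2% of the endothelial marker UMIs of the class. In microglia-like cells, where the sum was 175 to 193 CPM, 10 cells carried at most 14.3% in any library. Those 10 cells carried 1.53%, 44.6%, 24.3% and 22.9% of the endothelial marker UMIs of that class. Haemoglobin genes summed to 273, 189.8, 492 and 925 CPM in endothelial-like cells of the 4 libraries.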
